A study of Mus musculus with 5 samples.

Results

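The respiratory chain genes examined here are the genes whose symbols begin with the prefixes of the subunits of NADH dehydrogenase (NDUFA, NDUFB, NDUFC, NDUFS and NDUFV), succinate dehydrogenase (SDHA to SDHD), cytochrome bc1 (UQCR), cytochrome c oxidase (COX4I, COX5, COX6, COX7 and COX8) and ATP synthase (ATP5), together with the mitochondrially encoded subunits (MT-ND, MT-CO, MT-CYTB and MT-ATP). Symbols marked as pseudogenes and COX6A2 were left out. These prefixes gave 107 members among 13979 gene symbols shared by 3 of the deposited tables. The members were 82 nuclear-encoded subunits of the respiratory complexes, 13 mitochondrially encoded subunits and 12 assembly factors (NDUFAF and SDHAF genes) that share a prefix with the subunits. Of the 82 nuclear subunits, 37 belong to complex I, 4 to complex II, 8 to complex III, 16 to complex IV and 17 to complex V. Another 6 symbols matched the prefixes but were not in all 3 tables (COX4I2, COX6B2, COX8B, COX8C, NDUFA11B and NDUFB4C), and none of them exceeded 1.4 FPKM (fragments per kilobase of transcript, scaled to the library) in any table that held it.

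RNA was sequenced from 5 groups with 1 library each, all from LLC, a Lewis lung carcinoma cell line of the C57BL/6 mouse. The groups were Control, BMN (BMN673, an inhibitor of PARP), PAZA (a polymer carrier to which azacytidine, an inhibitor of DNA methyltransferases, is conjugated), BMN/PAZA low dose and BMN/PAZA high dose (BMN loaded in PAZA micelles). The sample labels describe cultured LLC cells treated for 72 h, whereas the study's text describes subcutaneous tumors collected the day after the last treatment. Leukocyte, macrophage, neutrophil, endothelial and fibroblast markers that were found were above 0 in all 5 libraries, with fibroblast sums of 313 to 817 on the scale defined next. Each library was scaled so that its values over the shared symbols sum to 1000000, and all levels are scaled FPKM on this scale. The tables hold no counts, and the depth of each library is unknown. No group has a replicate, so there is no error and no test, and a fold change compares a pair of libraries. Fold changes are log2 differences of the scaled FPKM plus a pseudocount of 1, and a gene is called higher or lower past the threshold at 1.5-fold (0.585 on the log2 scale). All comparisons with Control share the same Control library.

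The respiratory chain passes electrons from NADH (complex I) and succinate (complex II) through ubiquinone, complex III and cytochrome c to oxygen at complex IV, and the proton gradient made on the way drives ATP synthesis at complex V. Complex II is encoded wholly in the nucleus, whereas complexes I, III, IV and V combine nuclear subunits with core subunits that the mitochondrial genome encodes. The mitochondrial genes are transcribed as long polycistronic RNAs from both strands of the circular genome and are then cut apart, while each nuclear subunit has its own promoter.

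The sequences of the mitochondrially encoded members come first because part of the mitochondrial genome has a nuclear copy. GENCODE vM21 places 7 unprocessed pseudogenes on the minus strand of chromosome 1 of GRCm38, between 24611535 and 24616197, that copy adjoining mitochondrial genes. Gm28661 matched MT-CO2 over 681 bases with 0 mismatches, Gm28438 matched MT-ND3 over 345 bases with 1 mismatch and Gm29216 matched MT-CO1 over 483 bases with 1 mismatch. Windows of 90 bases of each gene and its copy are shown to make plain how little a read has to tell them apart. Capitals mark mismatches, positions are counted from 1 at the first base of the mitochondrial gene, and the gene's base is written first in T3C (MT-ND3) and A1066T (MT-CO1).
MT-CO2: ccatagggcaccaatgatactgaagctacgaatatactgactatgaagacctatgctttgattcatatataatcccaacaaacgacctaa
Gm28661: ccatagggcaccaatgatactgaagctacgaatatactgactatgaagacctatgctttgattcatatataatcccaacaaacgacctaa
MT-ND3: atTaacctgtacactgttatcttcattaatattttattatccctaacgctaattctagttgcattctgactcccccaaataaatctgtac
Gm28438: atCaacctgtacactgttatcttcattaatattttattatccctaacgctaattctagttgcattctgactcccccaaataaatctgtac
MT-CO1: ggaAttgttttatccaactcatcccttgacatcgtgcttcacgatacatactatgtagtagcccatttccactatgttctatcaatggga
Gm29216: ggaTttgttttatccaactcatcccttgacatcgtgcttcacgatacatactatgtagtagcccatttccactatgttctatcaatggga

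The MT-CO2 window spans bases 296 to 385 of the gene, the MT-ND3 window bases 1 to 90 and the MT-CO1 window bases 1063 to 1152. Copies of MT-ATP6 (Gm10925, 678 bases), MT-CO3 (Gm28437, 783 bases) and MT-ND4L (Gm10222, 294 bases) had 0 mismatches. Gm28439 covered 63.6% of MT-ND4 at 100% identity, and Gm29216 covered 31.3% of MT-CO1. Copies outside this stretch also match abundant genes less closely: Gm13340 on chromosome 2 covers 100% of MT-CO1 at 97.61% identity, Gm13339 49.1% of MT-ND2 at 96.67% and Gm4076 on chromosome 13 52.3% of MT-ND5 at 95.18%. Copies are thus not confined to the low genes described next. MT-ATP8 lies between MT-CO2 and MT-ATP6 on the mitochondrial genome and had no annotated copy.

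The 13 mitochondrially encoded genes fell into groups of very different level, and the plot along the mitochondrial genome shows the step. MT-ND1, MT-ND2, MT-CO1, MT-ND4, MT-ND5, MT-ND6 and MT-CYTB had between 1959 and 19260 scaled FPKM in every library. The 6 genes that lie next to each other between MT-CO1 and MT-ND4 (MT-CO2, MT-ATP8, MT-ATP6, MT-CO3, MT-ND3 and MT-ND4L) had between 3.87 and 86.3, and together made up 0.365% to 0.535% of the sum over the 13 genes. MT-CO1 and MT-CO2 are both core subunits of cytochrome c oxidase, yet MT-CO1 was at 13450 and MT-CO2 at 73.5 in Control. The 6 low genes lie within the stretch copied on chromosome 1. The 7 copies there were listed at 1.1 to 36.3 FPKM in the 3 deposited tables that hold them, which leave out the high-dose library, so genes and copies together stayed far below the level of the 7 abundant genes. How the submitters handled fragments that map to several places is not given in the sources used here, and its part in the low values was not tested. The values of these 6 genes are therefore given apart from those of the other 7.

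**Figure D1:**
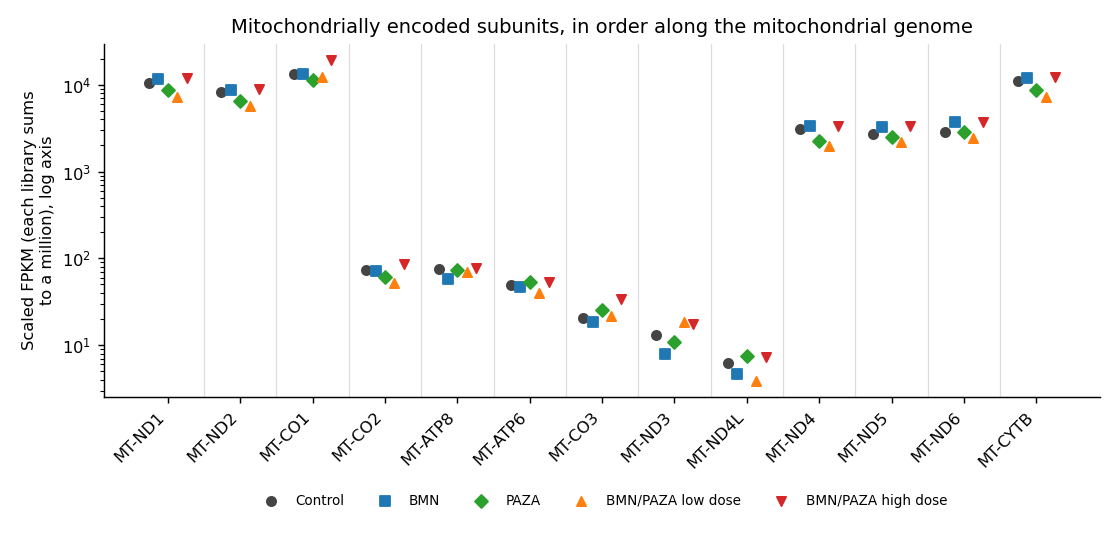
Scaled FPKM (log axis) of the 13 mitochondrially encoded genes in their order along the mitochondrial genome, with 1 point per library. The 6 genes from MT-CO2 to MT-ND4L sit below 100 in every library and the other 7 sit at 1959 or above, and low-dose BMN/PAZA is the lowest library for 6 of those 7.

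Among the 7 abundant mitochondrial genes, the high-dose BMN/PAZA library was the highest for 6 and low-dose BMN/PAZA the lowest for 6. Their summed level was 51740 in Control, 56110 in BMN, 42970 in PAZA, 38990 in low-dose and 62860 in high-dose BMN/PAZA. The full set of 13 took 5.2% of the scaled total in Control, 5.63% in BMN, 4.32% in PAZA, 3.92% in low-dose and 6.31% in high-dose BMN/PAZA. The libraries PAZA and low-dose BMN/PAZA thus lay below Control, and BMN and high-dose BMN/PAZA above it. With libraries scaled by median ratios the sum of the 7 genes was 1.0 of Control in BMN, 0.895 in PAZA, 0.8 in low-dose and 1.44 in high-dose BMN/PAZA, so that BMN was then level with Control.

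MT-CYTB, the cytochrome b core of complex III, had 10900 in Control, 12020 in BMN, 8655 in PAZA, 7298 in low-dose and 12440 in high-dose BMN/PAZA. MT-ND1, a membrane-arm core subunit of complex I, followed the same order of libraries, at 10540, 11520, 8812, 7218 and 11820. MT-ND4, another membrane-arm subunit of complex I, had 3117, 3332, 2267, 1959 and 3331. In each of these genes low-dose BMN/PAZA was the lowest library and PAZA the next. MT-CO1, the catalytic subunit of complex IV, departed from that order, with 13450 in Control, 13440 in BMN, 11460 in PAZA, 12160 in low-dose and 19260 in high-dose BMN/PAZA, so that PAZA was its lowest library.

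MT-ND2 ranged from 5728 in low-dose to 8868 in high-dose BMN/PAZA and MT-ND5 from 2202 to 3378 in the same libraries. MT-ND6, a complex I subunit encoded on the opposite strand from the other 12 genes, had 2821 in Control, 3735 in BMN, 2819 in PAZA, 2430 in low-dose and 3762 in high-dose BMN/PAZA. MT-ND6 was level between PAZA and Control, unlike MT-CYTB beside it. Whether strand was used in counting is not given in the sources used here, and without strand the reads of MT-ND6 cannot be told apart from those of the RNA of the opposite strand.

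Against Control, all 7 abundant mitochondrial genes were lower in low-dose BMN/PAZA, with log2 fold changes of −0.67 (MT-ND4) to −0.15 (MT-CO1) and a median of −0.52. All 7 were also lower in PAZA, by a median of −0.26, with MT-ND6 at −0.001. With libraries scaled by median ratios that median was −0.15 and MT-ND6 was at 0.11, above Control. In high-dose BMN/PAZA all 7 were higher than in Control, by 0.10 (MT-ND4) to 0.52 (MT-CO1) with a median of 0.19, or 0.43 with libraries scaled by median ratios. In BMN 6 of the 7 were higher, with a median of 0.13, but 4 of the 7 and a median of 0.01 with the other scaling. Most of these differences stayed within 1.5-fold. MT-ND4 in low-dose BMN/PAZA was past the threshold against Control. With libraries scaled by median ratios it was just short of it (−0.584), and MT-CO1 (0.76) and MT-ND6 (0.66) were past it in high-dose BMN/PAZA.

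The largest separation of the mitochondrial genes lay between the doses of BMN/PAZA. All 7 abundant genes were lower at the low dose than at the high dose, by a narrow range of −0.77 (MT-CYTB) to −0.62 (MT-ND5) with a median of −0.66. Of the 13 mitochondrial genes 10 were lower past 1.5-fold, where 6.5% of all symbols were. The median over the 13 was −0.63, and it lay 0.76 below the median of all symbols in that comparison (0.13). Both mitochondrial ribosomal RNAs, which are no members but come from the same genome, were also lower at the low dose, with 87480 against 116800 for MT-RNR1 and 128400 against 164400 for MT-RNR2.

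The 6 low mitochondrial genes did not share one order of libraries. MT-CO2 had 73.5 in Control, 71.6 in BMN, 60.9 in PAZA, 51.8 in low-dose and 86.3 in high-dose BMN/PAZA, the same order as MT-CYTB for PAZA and the 2 doses. MT-ND3 had 13.2, 7.83, 10.8, 18.4 and 17.3, with low-dose BMN/PAZA the highest library. MT-CO3 had 20.3, 18.5, 25.1, 21.9 and 34.4, and MT-CO3 was past 1.5-fold in high-dose BMN/PAZA against Control. Against BMN, 3 of the 6 were higher and 3 lower in low-dose BMN/PAZA, whereas all 7 abundant genes were lower (6 of 7 with libraries scaled by median ratios, where MT-CO1 was at 0.06).

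The nuclear-encoded subunits were higher than in Control in PAZA and low-dose BMN/PAZA, the libraries in which the mitochondrially encoded genes were lowest, and the place of high-dose BMN/PAZA depended on the scaling. Their summed level was 13240 in Control, 12660 in BMN, 15130 in PAZA, 14460 in low-dose and 12840 in high-dose BMN/PAZA. Relative to Control these sums are 0.956 in BMN, 1.14 in PAZA, 1.09 in low-dose and 0.97 in high-dose BMN/PAZA, and with libraries scaled by median ratios they are 0.882, 1.23, 1.16 and 1.15, so that the high-dose library then lies above Control and beside the low dose. The ratio of the 7 mitochondrial genes to the 82 nuclear subunits, which does not depend on the scaling, was 3.91 in Control, 4.43 in BMN, 2.84 in PAZA, 2.7 in low-dose and 4.9 in high-dose BMN/PAZA. PAZA and low-dose BMN/PAZA had the lower ratios and high-dose BMN/PAZA the highest. Gene by gene, 30 of the 82 nuclear subunits were highest in PAZA and 26 in low-dose BMN/PAZA, while 25 were lowest in Control, 24 in BMN and 23 in high-dose BMN/PAZA. Over the 12197 symbols above 0 in all libraries, 14.8% were highest in PAZA and 18.1% in low-dose BMN/PAZA, against 36.6% and 31.7% of the nuclear subunits. The shares lowest in Control, BMN and high-dose BMN/PAZA were 16.6%, 10.9% and 35.1% of those symbols and 30.5%, 29.3% and 28.0% of the nuclear subunits, so the high-dose share lay below that of all symbols. In bulk RNA, fewer cells of a type and less RNA per cell cannot be told apart.

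**Figure D2:**
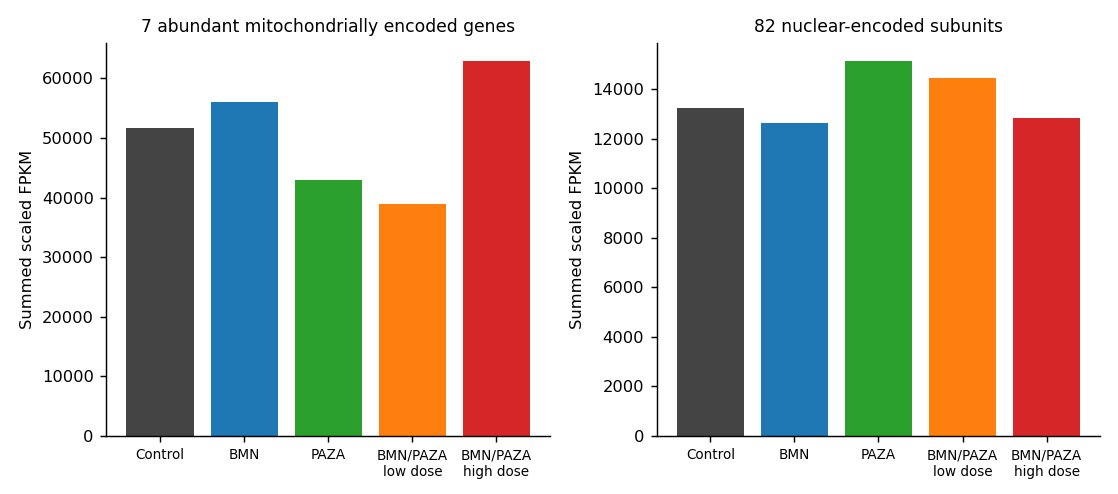
Summed scaled FPKM of the 7 abundant mitochondrially encoded genes (left) and of the 82 nuclear-encoded subunits (right), with 1 bar per library on axes that start at 0. The mitochondrial sum is lowest in low-dose BMN/PAZA (38990) and the nuclear sum is highest in PAZA (15130). The high-dose nuclear bar lies below Control on this scaling (0.97 of Control) and above it with libraries scaled by median ratios (1.15).

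In PAZA against Control, 61 of the 82 nuclear subunits were higher, where 43.6% of all symbols were. Their median log2 fold change was 0.32, and the median of all symbols was −0.07. Past 1.5-fold, 21 of the 107 members were higher and 3 lower, where 10.5% of all symbols were higher and 14% lower. All 5 complexes had medians above 0, with 0.31 for complex I, 0.32 for complex II, 0.52 for complex III, 0.30 for complex IV and 0.30 for complex V. In low-dose BMN/PAZA against Control, 65 of the 82 nuclear subunits were higher, where 47.2% of all symbols were, with a median of 0.25. Of the members 23 were higher past 1.5-fold and 2 lower, where 11.3% and 12.8% of all symbols were.

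In BMN against Control the members were spread around no change. Of the 82 nuclear subunits 43 were higher, where 59.9% of all symbols were, and the median was 0.05, beside 0.09 for all symbols. This median is −0.07 when libraries are scaled by median ratios, so no direction is read from it. Past 1.5-fold, 6 members were higher and 8 lower, where 13.2% and 6.89% of all symbols were. In high-dose BMN/PAZA against Control, 45 of the 82 nuclear subunits were higher, where 35.5% of all symbols were, and 12 members were higher past 1.5-fold and 4 lower, where 8.49% and 18.1% of all symbols were. With libraries scaled by median ratios instead, 25 members were higher and 1 was lower in that comparison. That scaling raises all symbols of the high-dose library alike against Control. The share of all symbols past 1.5-fold was not counted with it, so these counts have no background beside them. The nuclear median was 0.04, which lay 0.21 above the median of all symbols (−0.17). It was 0.27 with libraries scaled by median ratios and 0.22 with 4 abundant noncoding RNAs left out of the sum, beside 0.34 and 0.33 in low-dose BMN/PAZA.

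**Figure D3:**
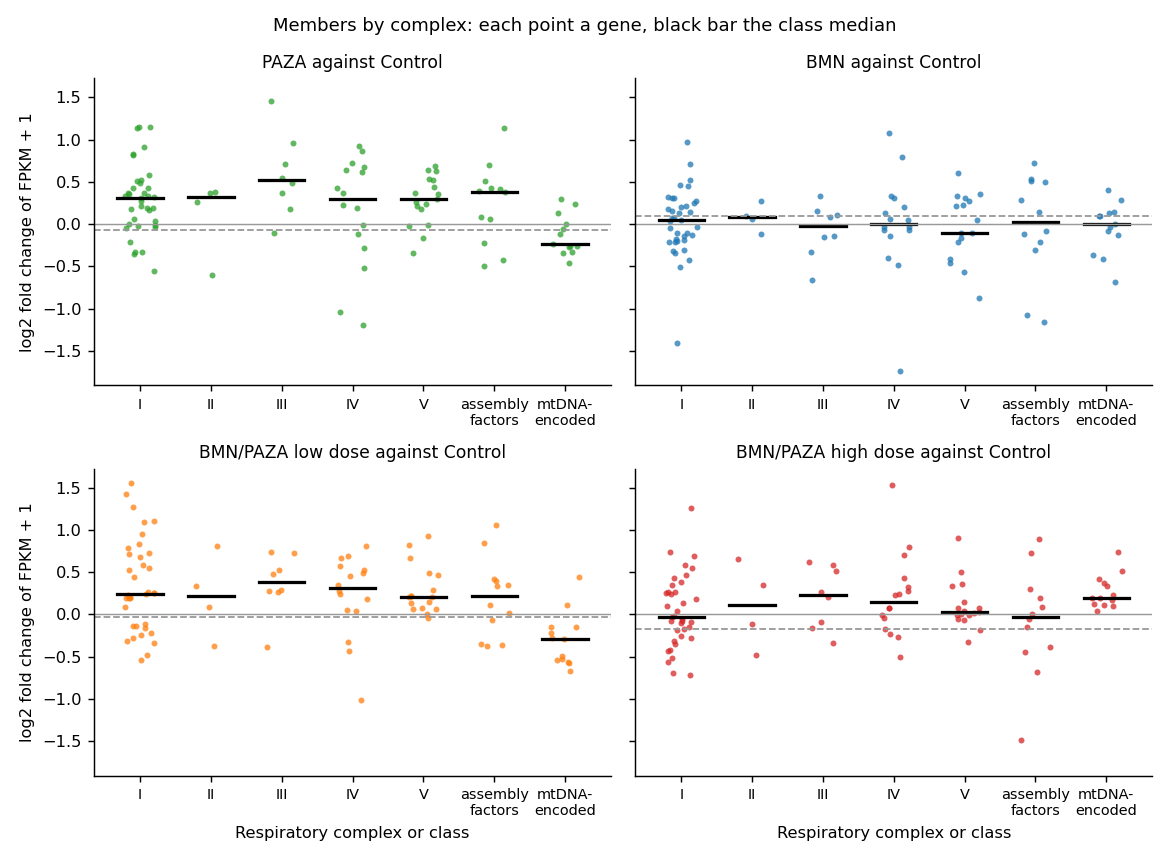
Log2 fold changes (scaled FPKM plus 1) against Control of every member, by complex and for each treatment, with a black bar at each class median and a dashed line at the median of all symbols; ATP5O in BMN lies outside the axis and is left out of the points. The medians of complexes I to V lie at 0.30 to 0.52 in PAZA and at 0.21 to 0.38 in low-dose BMN/PAZA, and the median of the mitochondrially encoded genes lies below 0 there, with 3 of the 13 above 0 in PAZA and 2 in low-dose BMN/PAZA.

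Against BMN, 20 members were higher and 7 lower past 1.5-fold in low-dose BMN/PAZA, where 9.41% and 18.6% of all symbols were, and 5 of those 7 were mitochondrially encoded. With libraries scaled by median ratios 34 members were higher and 2 lower. The complex III subunits had the highest median there, at 0.63, with 5 of 8 past the threshold. In high-dose BMN/PAZA against BMN, 15 members were higher and 3 lower, where 6.15% and 24% of all symbols were, and 36 members were higher with the other scaling. The shares of all symbols were not counted with the other scaling, so its counts are not read against those given here. Low-dose BMN/PAZA and PAZA alone stood closest, with 6 members higher and 4 lower past the threshold, where 9.36% and 8.07% of all symbols were, and a nuclear median of −0.02. Between the doses, 11 members were higher and 11 lower at the low dose, where 12.5% and 6.5% of all symbols were. Of the nuclear subunits 61 were higher at the low dose, where 65.5% of all symbols were, so the share of higher subunits was close to the background.

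Complex I, the largest complex and the entry point for NADH, held 7 of the 21 members that were higher past 1.5-fold in PAZA and 12 of the 23 in low-dose BMN/PAZA. These are 18.9% and 32.4% of its 37 subunits, where 10.5% and 11.3% of all symbols were higher, and complex I made up 37 of the 107 members. NDUFB4, an accessory subunit of the membrane arm on chromosome 16 (37647170 to 37654453), had 27.4 in Control, 38.2 in BMN, 61.3 in PAZA, 82.7 in low-dose and 46.5 in high-dose BMN/PAZA. Control was its lowest library and low-dose BMN/PAZA its highest, a log2 fold change of 1.56. Its transcript has a near-identical copy (Ndufb4c), which was listed at 0 in BMN and low-dose BMN/PAZA in the table that holds it. NDUFB2, also of the membrane arm, had 19.7, 27.3, 44.9, 54.5 and 48.7, so all 3 PAZA-containing libraries lay above Control and BMN.

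NDUFB8, a membrane-arm subunit often used as a protein marker of assembled complex I, had 60.1 in Control, 47.2 in BMN, 107 in PAZA, 130.6 in low-dose and 90.6 in high-dose BMN/PAZA. NDUFB6 had 25.1, 21.5, 45.4, 45.7 and 37.2 and shared with NDUFB8 the low position of BMN. NDUFA7 separated BMN more sharply, with 28.3 in Control, 10.0 in BMN, 35.7 in PAZA, 41.1 in low-dose and 18.8 in high-dose BMN/PAZA, a log2 fold change of −1.41 in BMN against Control. NDUFA11, an accessory membrane-arm subunit, was highest in low-dose BMN/PAZA at 39.8 and between 14.2 and 23.4 in the others. NDUFA3 had 18.2 in Control and 30.5, 41.7, 36.1 and 25.6 in BMN, PAZA, low-dose and high-dose BMN/PAZA.

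The nuclear subunits of complex I comprise 7 core subunits, which carry the flavin and the iron-sulfur clusters, and 30 accessory subunits. In low-dose BMN/PAZA against Control, 1 of the 7 (NDUFV1, at 80.6 and 46.3) and 11 of the 30 were higher past 1.5-fold, where 11.3% of all symbols were, and the medians were 0.25 and 0.23. The 30 include NDUFS6B, which is annotated as a processed pseudogene, and without it 10 of 29 were higher, with a median of 0.21. In PAZA 2 of the 7 were higher past the threshold, NDUFS7 and NDUFS8, where 10.5% of all symbols were. NDUFS7 had 11.1 in Control, 11.5 in BMN, 21.7 in PAZA, 8.90 in low-dose and 10.5 in high-dose BMN/PAZA and so stood high in PAZA alone. NDUFS5, the complex I member with the highest mean level, ran the other way, from 583.6 in Control to 470.0 in low-dose and 355.3 in high-dose BMN/PAZA, with 513.7 in BMN and 569.3 in PAZA. NDUFC1 was likewise lowest at the high dose, at 57.5 against 93.4 in Control. NDUFA6 was at 239.8 in Control and 177.5 at the high dose.

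Complex II, succinate dehydrogenase, also works in the citric acid cycle. SDHA, its flavoprotein and the site of succinate oxidation, had 61.7 in Control, 64.6 in BMN, 40.3 in PAZA, 47.4 in low-dose and 43.7 in high-dose BMN/PAZA, and was the only complex II subunit past the threshold in PAZA (−0.60). SDHA was the closest to the threshold of the 3 members lower in PAZA, and with libraries scaled by median ratios 2 members were lower. Its 3 PAZA-containing libraries lay below the other libraries, whereas SDHD, a membrane anchor, had 43.9, 40.4, 57.6, 77.9 and 56.1, and lay above them there. SDHB, the iron-sulfur subunit, ranged from 45.9 at the high dose to 64.8 in PAZA. SDHC had 10.5 to 17.1, with the high dose the highest. The subunits of the complex therefore did not move in one direction.

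In complex III, 7 of 8 nuclear subunits were higher in PAZA than in Control and 7 of 8 in low-dose BMN/PAZA, where 43.6% and 47.2% of all symbols were. UQCRQ, a small subunit next to cytochrome b, on chromosome 11 (53427922 to 53430831), had 24.2 in Control, 25.7 in BMN, 68.0 in PAZA, 40.6 in low-dose and 29.1 in high-dose BMN/PAZA, and its log2 fold change of 1.46 in PAZA was the highest of all 107 members in that comparison. UQCR10 had 84.9, 76.1, 165.4, 142.5 and 131.5, with the 3 PAZA-containing libraries above the others. UQCR11 had 16.9, 10.3, 28.3, 20.4 and 25.8, in the same arrangement. UQCRB, the most abundant of the complex, was the exception, at 889.3 in Control, 959.2 in BMN, 825.2 in PAZA, 679.6 in low-dose and 702.3 in high-dose BMN/PAZA, and 3 near-identical copies of its transcript are annotated. UQCRH, the acidic hinge subunit, ranged from 198.1 in BMN to 304.3 in low-dose BMN/PAZA.

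Complex IV members include tissue isoforms. COX6B1, which joins the dimer on the side facing cytochrome c, had 198.6 in Control, 206.6 in BMN, 362.1 in PAZA, 294.9 in low-dose and 209.1 in high-dose BMN/PAZA. NDUFA4, now known as a subunit of complex IV, had 46.7 in Control and 81.8 to 89.6 in the 4 treated libraries, so every treatment lay above Control and close to each other. COX7B was also lowest in Control, with 149.0, 187.4, 246.3, 241.8 and 243.1. COX4I1, the common isoform of its subunit, was level, at 598.3, 583.7, 592.7, 620.2 and 496.6.

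The heart and skeletal muscle isoform COX7A1 had 17.5 in Control, 4.51 in BMN, 14.1 in PAZA, 13.7 in low-dose and 17.3 in high-dose BMN/PAZA, and its partner of most other tissues, COX7A2, had 79.9, 99.1, 128.5, 127.8 and 96.7. COX7A1 was low in BMN alone, with a log2 fold change of −1.74 against Control. COX7A2L, which links complexes III and IV, was highest in Control at 1701 and between 1181 and 1291 in the 4 treated libraries. COX5A ranged from 42.2 to 63.1 and COX5B from 132.1 to 202.3, with PAZA the highest for COX5B. COX6A1, COX8A and COX6C stayed within 1.5-fold of Control in every library on this scaling, with COX8A the furthest, at 0.425 in high-dose BMN/PAZA. Median-ratio scaling raises that library against Control, so the statement is limited to the scaling used here. COX6A2, the muscle isoform that the prefix rule leaves out, was listed at no more than 0.576 FPKM in the 4 tables with it.

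NDUFA4L2, a relative of NDUFA4 known to be induced in hypoxia, was low, at 1.30 in Control, 3.83 in BMN, 1.36 in low-dose and 1.23 in high-dose BMN/PAZA, and it was listed at 0 in PAZA. COX6C2 had 8.34 in Control, 5.67 in BMN, 3.56 in PAZA, 3.62 in low-dose and 25.9 in high-dose BMN/PAZA, and it is annotated as a processed pseudogene although its symbol carries no such mark. It is listed as a near-identical copy of COX6C, which had 1313 to 1574, so its reads could be drawn from that gene. NDUFS6B, at 2.93 to 8.47, is annotated as a processed pseudogene as well and as a copy of NDUFS6, which had 95.5 to 146.3.

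In complex V the c-ring subunit, which proton flow turns, is encoded by 3 genes for the same mature protein. ATP5G2 had 13.7 in Control, 6.98 in BMN, 12.1 in PAZA, 24.8 in low-dose and 13.5 in high-dose BMN/PAZA. ATP5G1 was between 8.17 in BMN and 14.0 at the high dose, and ATP5G3 was lowest in Control at 28.3 and between 34.7 and 44.3 in the treated libraries. BMN was thus the lowest library for ATP5G1 and ATP5G2 and not for ATP5G3. ATP5G2 has 2 annotated copies identical over its 441 bases and ATP5G1 has 1 near-identical copy, whereas none was found for ATP5G3. The part of these copies in the values was not tested. ATP5E, the epsilon subunit of the central stalk, had 92.8 in Control, 69.3 in BMN, 119.0 in PAZA, 176.8 in low-dose and 117.2 in high-dose BMN/PAZA.

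ATP5MD, a small membrane subunit needed for dimers of ATP synthase, had the highest mean of the nuclear members, with 1745 in Control, 1508 in BMN, 2368 in PAZA, 2018 in low-dose and 1835 in high-dose BMN/PAZA. Together with ATP5MPL, another small membrane subunit at 59.4, 76.3, 96.1, 94.9 and 112.3, it was higher than Control in all 3 PAZA-containing libraries. ATP5PB, of the peripheral stalk, ranged from 393.7 in low-dose BMN/PAZA to 509.7 in BMN. ATP5B, the catalytic beta subunit, stayed within 1.5-fold, at 316.0, 282.1, 408.4, 368.7 and 316.5. ATP5O, the stalk subunit that confers sensitivity to oligomycin, was at 72.0, 112.8, 100.1 and 73.6 in Control, PAZA, low-dose and high-dose BMN/PAZA and at 0.12 in BMN. The symbol names a pair of overlapping genes on chromosome 16 in the annotation, and ATP5O was listed at 0 for low-dose BMN/PAZA in the deposited table with BMN although other tables give it a value, so the BMN value is not comparable. ATP5O is counted in the comparisons with BMN above. Without it, 7 members were lower in BMN against Control, and 19 were higher in low-dose and 14 in high-dose BMN/PAZA against BMN. It was the only member whose value departed between tables by more than a constant factor.

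**Figure D4:**
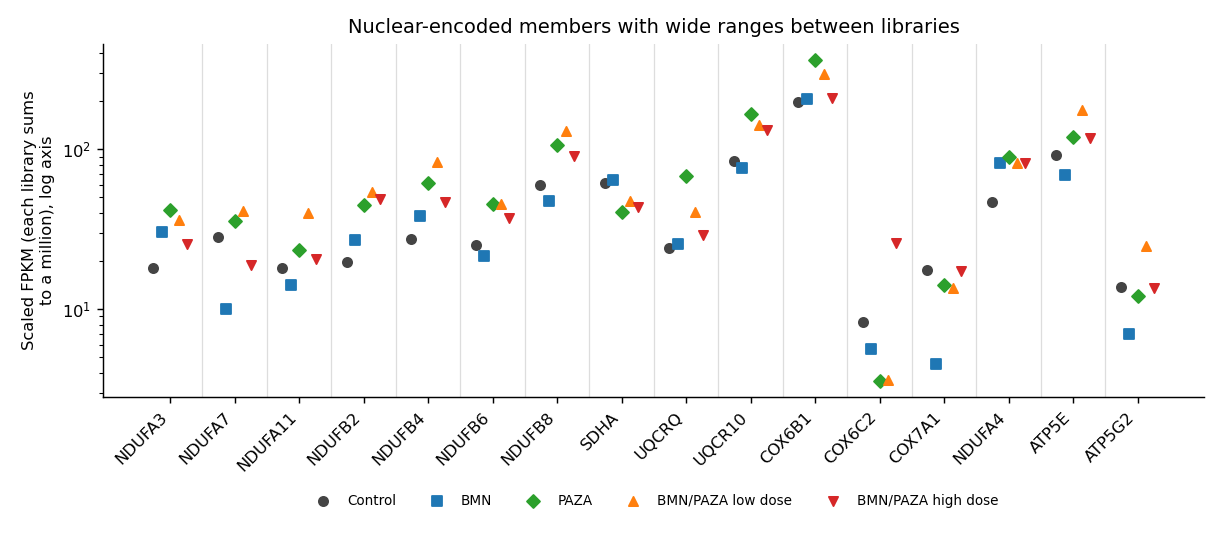
Scaled FPKM (log axis) of 16 nuclear-encoded members in each of the 5 libraries, 1 point per library. NDUFB2, NDUFB4, NDUFB8 and UQCRQ lie lowest in Control or BMN, SDHA lies lower in the PAZA-containing libraries and COX7A1 lies apart only in BMN.

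The 12 assembly factors, which build complexes I and II without being part of them, were expressed at lower levels than the subunits, with class medians of 6.16 to 9.53. NDUFAF5 had 4.79 in Control, 7.39 in BMN, 11.7 in PAZA, 9.39 in low-dose and 6.12 in high-dose BMN/PAZA. NDUFAF6 was highest in Control at 10.5 and lowest in BMN at 4.18. SDHAF4, which helps SDHA to mature, had 4.48, 1.60, 6.20, 4.53 and 0.951, with BMN and high-dose BMN/PAZA the low libraries. NDUFAF8 had 1.10 in Control and 2.40 to 3.39 in the treated libraries. The most abundant of the class were NDUFAF2 (61.0 to 90.8) and SDHAF2 (45 to 63.9), and neither was past 1.5-fold against Control on this scaling. NDUFAF2 was near it in PAZA, at 0.51, and median-ratio scaling raises PAZA against Control.

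Length of the transcript moved with the difference. Most of the nuclear subunits are short: of the 78 with a GENCODE transcript, 53 were under 1000 bases and 4 were 2500 bases or more. Among all other symbols in PAZA against Control, the median log2 fold change was 0.20 for transcripts under 1000 bases, 0.02 for 1000 up to 2500 bases and −0.17 for 2500 bases or more. The nuclear subunits under 1000 bases had a median of 0.33 and those of 1000 up to 2500 bases of 0.37, whereas the 4 of 2500 bases or more had −0.34. In low-dose BMN/PAZA the other symbols had 0.19, 0.02 and −0.11 in the same classes, and the nuclear subunits had 0.28, 0.22 and −0.18. The median of the 4 long subunits (SDHA, NDUFAB1, NDUFS1 and ATP5G1) lay below that of other long transcripts in both comparisons, and those of the shorter classes lay above. NDUFS1 was at 0.19 and 0.25, however, and ATP5G1 was at 0.009 in low-dose BMN/PAZA. Processed copies match only 8.7% of the transcript used for ATP5G1 (4715 bases) and 13.5% of that for NDUFAB1 (3479 bases). The class of these genes depends on the transcript chosen, so no contrast is read from the 4. Short transcripts as a whole were higher in the same libraries as the nuclear subunits. In high-dose BMN/PAZA the subunits under 1000 bases had 0.07 against −0.03 for other symbols, and in BMN −0.04 against 0.04. The part that length, library preparation or RNA quality plays in these medians was not tested.

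**Figure D5:**
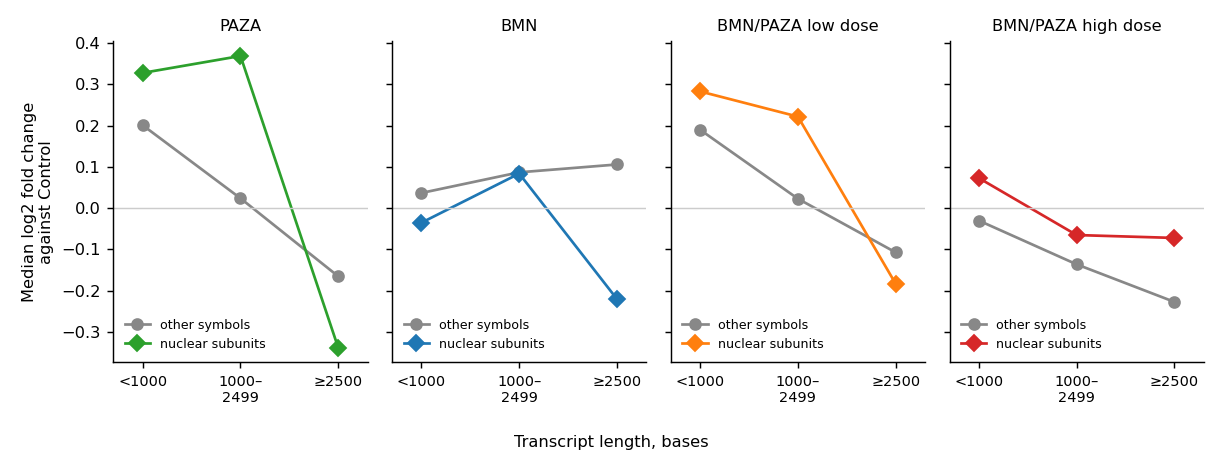
Median log2 fold change against Control by transcript length in bases, for the nuclear subunits (coloured, 53, 21 and 4 genes) and for all other symbols (grey), in 1 panel per treatment. In PAZA and low-dose BMN/PAZA the grey medians fall from 0.20 and 0.19 for short transcripts to below 0 for long ones, and the medians of the subunits lie above them in the shorter classes and below them in the longest. The longest class of subunits depends on the transcript chosen for ATP5G1 and NDUFAB1.

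Genes of other mitochondrial functions did not all share the order of the nuclear subunits. Of 78 mitochondrial ribosomal proteins, which translate the mitochondrially encoded subunits, 18 were higher and 1 lower past 1.5-fold in PAZA against Control and 21 and 1 in low-dose BMN/PAZA, with medians of 0.28 and 0.24. These counts stand beside 10.5% of all symbols higher and 14% lower in PAZA and 11.3% and 12.8% in low-dose BMN/PAZA. In BMN 7 of the 78 were higher and 3 lower, where 13.2% and 6.89% of all symbols were, and in high-dose BMN/PAZA 5 and 6, where 8.49% and 18.1% were. Of 17 citric acid cycle genes, 0 were past the threshold in PAZA and 2 were lower in low-dose BMN/PAZA, with medians of −0.02 and 0.05. The 14 electron carrier genes (cytochrome c, the ubiquinone pathway and the electron transfer flavoprotein genes) had medians of −0.02 and 0.02 there, and 32 further assembly factors had 0.14 and 0.06.

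Among 21 genes of mitochondrial DNA maintenance and expression, 6 were lower and 1 higher in high-dose BMN/PAZA against Control, where 18.1% and 8.49% of all symbols were, with a median of −0.34 beside −0.17 for all symbols. Median-ratio scaling, which raises the high-dose library against Control, was not applied to this list, so these counts and the median hold for the main scaling. TFAM, which packages the mitochondrial genome and starts its transcription, had 85.6 in Control, 66.4 in BMN, 51.8 in PAZA, 64.4 in low-dose and 47.8 in high-dose BMN/PAZA. POLRMT, the mitochondrial RNA polymerase, had 8.0 in Control and 4.56 to 5.25 in the treated libraries. POLG, the replicative DNA polymerase, had 9.57, 11.4, 19.6, 19.6 and 14.6. None of these 3 genes followed the order of the mitochondrial transcripts over the libraries.

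Of 9 regulators of mitochondrial biogenesis found, GABPA (an ETS factor that binds promoters of respiratory genes) had 276.1 in Control, 275.6 in BMN, 153.1 in PAZA, 144.2 in low-dose and 173.2 in high-dose BMN/PAZA. GABPA was lower in the 3 PAZA-containing libraries than in Control and BMN. NRF1, a factor that binds the same class of promoters, had 12.9 to 16.1, and ESRRA had 0.67 in Control and 1.16 to 2.47 in the treated libraries. The 9 genes had medians of −0.18 in PAZA and −0.17 in low-dose BMN/PAZA against Control.

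The promoters of the nuclear members were searched on both strands for short cores of the factors known to act on them, in the 300 bases of RefSeq from 250 before to 50 after the start (GRCm38.p6). Promoters were found for 78 of the 94 nuclear members and 10753 of the shared symbols. The NRF1 core CGCATGCG was in 14.1% of the members, 4.05% of the shared symbols and 2.07% of all 27025 genes. The ETS core CCGGAAG was in 28.2%, 18.7% and 9.93%, the YY1 core AAGATGG in 15.4%, 8.02% and 7.28%, the estrogen-related receptor core AAGGTCA in 10.3%, 4.08% and 5.38%, and the CREB core TGACGTCA in 5.13%, 3.41% and 2.03%. The ETS core ends in the letters with which the YY1 and estrogen-related receptor cores begin, so that matches can overlap, and a match is not evidence of binding. The 3 promoters that held the NRF1 and the ETS core within the 250 bases before the start are shown as examples, 5′ to 3′ on the minus strand, with each core found in capitals (on either strand). They are ATP5J at chr16:84834977-84835226, ATP5L at chr9:44920743-44920992 and COX6A1 at chr5:115348959-115349208.
ATP5J: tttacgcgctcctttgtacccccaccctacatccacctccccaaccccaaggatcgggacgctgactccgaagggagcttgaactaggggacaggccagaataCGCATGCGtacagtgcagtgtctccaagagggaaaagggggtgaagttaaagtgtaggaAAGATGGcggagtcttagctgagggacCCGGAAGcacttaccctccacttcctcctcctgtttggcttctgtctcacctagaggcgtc
ATP5L: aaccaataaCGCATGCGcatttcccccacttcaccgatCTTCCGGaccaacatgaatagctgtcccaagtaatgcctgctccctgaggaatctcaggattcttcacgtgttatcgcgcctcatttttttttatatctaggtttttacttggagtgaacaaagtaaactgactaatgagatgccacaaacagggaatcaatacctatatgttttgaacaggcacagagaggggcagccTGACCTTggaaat
COX6A1: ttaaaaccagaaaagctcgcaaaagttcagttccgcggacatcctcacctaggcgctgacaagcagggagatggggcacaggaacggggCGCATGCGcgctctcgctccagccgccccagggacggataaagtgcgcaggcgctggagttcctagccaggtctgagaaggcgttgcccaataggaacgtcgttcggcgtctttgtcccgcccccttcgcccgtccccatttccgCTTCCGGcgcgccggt

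ATP5J, a peripheral stalk subunit, also held the YY1 core, and ATP5L, a membrane subunit, the estrogen-related receptor core. ATP5J had 168.7 in Control, 198.1 in BMN, 198.7 in PAZA, 176.4 in low-dose and 217.5 in high-dose BMN/PAZA. COX6A1 had 91.7, 105.6, 118.7, 111.7 and 80.9. ATP5L had 37.9, 27.2, 46.9, 39.6 and 38.9, lowest in BMN, and 9 near-identical copies of its transcript are annotated, the most of any member.

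Near-identical copies elsewhere in the genome (at least 95% identity over at least 200 bases) were found for 29 of the 107 members, 20 of them nuclear subunits. Fragments of such members could be split with the copy, and their values are uncertain to that degree. ATP5MD and ATP5PB were not searched, and COX6C2 and NDUFS6B are copies themselves. The other 58 nuclear subunits, for which no such copy was found, had median levels of 59.0 in Control, 62.4 in BMN, 66.4 in PAZA, 71.6 in low-dose and 58.4 in high-dose BMN/PAZA, so PAZA and low-dose BMN/PAZA were the high libraries in that subset too.

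Markers of some other cell types differed widely between the libraries, while the summed markers of macrophages (272 to 408), leukocytes (119 to 187), endothelium (27.1 to 45.8) and epithelial or tumor cells (2460 to 2900) differed less. The last sum was mostly VIM (2076 to 2470), and EPCAM (0 to 3.30), CDH1 (1.57 to 5.14) and KRT18 (0 to 3.49) were low. In BMN against Control, 3 of the 6 epithelial or tumor markers and 3 of the 4 endothelial markers were higher past 1.5-fold. Of all symbols 13.2% were. The summed level of 12 skeletal muscle markers was 19.9 in Control, 239 in BMN, 78.8 in PAZA, 16.9 in low-dose and 282 in high-dose BMN/PAZA, with 2 of the 12 at 0 in Control, 4 in low-dose BMN/PAZA and 0 in the others. BMN and high-dose BMN/PAZA were also the libraries with the highest sums of the 7 abundant mitochondrial genes. With libraries scaled by median ratios, however, BMN was level with Control for that sum (1.0). All 6 low mitochondrial genes were lower in BMN than in Control. Skeletal muscle is rich in mitochondria, and its part in the mitochondrial values was not tested. All 12 muscle markers were higher past 1.5-fold than in Control in BMN and in high-dose BMN/PAZA. The muscle isoform COX7A1 was lowest in BMN (4.51) and was at 17.3 in high-dose BMN/PAZA, close to Control. COX6A2 was listed at 0 in BMN and at 0.576 FPKM in high-dose BMN/PAZA, beside 0.548 in Control. The 5 keratinocyte markers summed to 87.2, 238, 8.94, 1.84 and 16.2, the 6 fibroblast markers to 313, 817, 534, 318 and 350, and the 4 neutrophil markers to 72.8, 64.6, 122, 121 and 232, and their part was not tested either. The 5 proliferation markers ranged from 400.0 at the high dose to 625 in BMN. Abundant noncoding RNAs also differed: RN7SK had 85130 in Control, 66610 in BMN, 113800 in PAZA, 135800 in low-dose and 99820 in high-dose BMN/PAZA, and such a sum weighs on the scale of every other gene.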

How the data were processed

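RNA of 5 libraries, 1 per group, was analysed. The authors deposited 5 tables of 2 libraries each, which name no unit, and the deposited values were read as FPKM from their form. Per the labels, HISAT2, StringTie and GRCm38 were used, and versions and the handling of strand or multiply mapped fragments are not given in the sources used here. Control and PAZA were taken from 1 table, BMN and BMN/PAZA high dose from another and BMN/PAZA low dose from another again. Over the 13979 symbols shared by these 3 tables each column was scaled to a sum of 1000000, since the low-dose column differs between tables by a constant of up to 3.41. The depth is unknown, so no counting interval was computed. Fold changes are log2 of the scaled value plus 1, over symbols above 0 in either library, and 8 comparisons were made. With 1 library per group no test was run, and counts past 1.5-fold are set beside the share of all symbols past it.

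The members and lists were chosen with earlier results of these data known. Named members are the 13 mitochondrially encoded genes, the 2 of highest mean and the 2 of widest range in each class, the members past 1.5-fold against Control (at most 10 in each direction) and a fixed list of complex IV subunits with isoforms, their partners (COX5A and COX5B among them) and the c-ring genes. Further members were named after their values were seen: ATP5B, ATP5J, ATP5L, NDUFS6 and SDHC, the core subunits of complex I, and the genes of other mitochondrial functions.

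Copies were searched with blastn 2.17.0 among GENCODE vM21 transcripts. ATP5MD, ATP5PB, COX6C2 and NDUFS6B had no coding transcript under their symbol there and were not searched. Transcript length is that of the first numbered coding transcript. Promoters came from RefSeq (GRCm38.p6). The scaling and the fold calls were tested on data simulated from the Control values, with known fold changes and no noise between libraries. Other steps were not tested in that way. Python 3.11.15, numpy 2.4.6, pandas 2.3.3 and matplotlib 3.10.9 were used. Alternatives were another pseudocount, a filter on the mean, other sums, median-ratio scaling, values of another table, members without copies and members without ATP5O.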

Additional observations from a re-analysis of the deposited data

How the results depend on the processing

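No paired analysis was possible because each group has 1 library and no result comes from a test. Of 256 values (32 results under 8 alternatives), 214 kept their sign and stayed within 0.1 on the log2 scale or within 1.5 times for counts. A pseudocount of 0.1 and a minimum mean of 1 moved none of the 32, nor did leaving out ATP5O, which was chosen after seeing the data. The cause of the shifts was not tested.

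Under median-ratio scaling, which sets the median of all symbols near 0, the nuclear median was 0.43 in PAZA, −0.066 in BMN (reversed) and 0.27 in high-dose BMN/PAZA against Control, 0.48 in low-dose and 0.38 in high-dose BMN/PAZA against BMN, and 0.056 between the doses. The median of the 13 mitochondrially encoded genes was then −0.12, −0.12 and 0.43 in PAZA, BMN and high-dose BMN/PAZA against Control, −0.26 and 0.55 in low-dose and high-dose BMN/PAZA against BMN, and −0.79 between the doses. Members past 1.5-fold were 1 lower in low-dose BMN/PAZA, 25 higher and 1 lower in high-dose BMN/PAZA against Control, 34 higher and 2 lower in low-dose BMN/PAZA against BMN, and 36 higher in high-dose BMN/PAZA against BMN. The share of all symbols past 1.5-fold was not counted under this scaling, which moves all symbols of a library alike.

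Without 4 abundant noncoding RNAs in the sum, chosen after seeing the data, high-dose BMN/PAZA had 22 members higher and 1 lower and medians of 0.22 (nuclear) and 0.38 (mitochondrial) against Control. Against BMN, 4 members were lower in low-dose BMN/PAZA with medians of 0.41 and −0.35, and 29 were higher in high-dose BMN/PAZA with medians of 0.26 and 0.44. Between the doses the medians were 0.10 and −0.75. Shares of all symbols past 1.5-fold were not counted with this sum either.

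With 74 members left once those that have a copy, are a copy or were not searched are taken out, also chosen after seeing the data, counts are lower in part because fewer members enter. Then 5 members were lower in BMN and 0 in low-dose BMN/PAZA and 7 higher in high-dose BMN/PAZA against Control, 3 were higher in low-dose BMN/PAZA against PAZA, 9 were higher in high-dose BMN/PAZA against BMN, and 3 were lower at the low dose than at the high dose. With these members, the mitochondrial median was 0.14 in BMN against Control (reversed from −0.001), −0.65 in low-dose and 0.043 in high-dose BMN/PAZA against BMN. Without mitochondrially encoded symbols in the sum, that median in BMN was 0.006 (reversed), and 4 members were lower in low-dose BMN/PAZA against Control, as with the values of another table (4). With the other table these include ATP5O, which is listed there at 0 for low-dose BMN/PAZA and is not comparable.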
